A study of Rattus norvegicus with 2 samples.

Results

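The genes described here are 41 genes of skeletal muscle, chosen by symbol for their known roles in contraction and in the energy supply of muscle fibers, out of 17337 genes in the table. Of the 41 members, 38 had a row. Neb, Ttn and Ryr1, which encode nebulin, titin and the calcium release channel, had no matching symbol and were not analysed here. Acetabular cartilage of Wistar rats had been harvested at 3 weeks of age, and pooled RNA gave 1 library from 4 control rats and 1 library from 5 DA-DDH rats. DA-DDH (hip disarticulation model of developmental dysplasia of the hip) rats had been swaddled for the first 10 days of life with the hips adducted and extended and the knees extended. They moved freely afterwards, and control rats were never restrained. Sex was not evaluated. Cartilage was dissected under a microscope so as to leave out bone, marrow and soft tissue as far as possible. No difference can be checked against replicates, so no test of the conditions was made, and every interval below covers counting error only.

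Skeletal muscle fibers shorten when myosin heavy chains of the thick filament pull on actin of the thin filament, and calcium released from internal stores switches this pull on through troponin. Fast, slow and developing fibers use different genes for the same parts, so that myosin, troponin and light chain isoforms mark the kind of fiber. Muscles cross the hip joint and attach close to the acetabulum, whereas cartilage itself holds no muscle fibers.

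The libraries held 796723 (control) and 833869 (DA-DDH) reads, recovered from the deposited normalized values. Cartilage genes dominated both, with all 10 cartilage markers that had a row above 30 reads, but their summed share was 32.8% of control reads and 13.4% of DA-DDH reads. Col2a1 alone held 233705 of the 261687 marker reads in the control library and 95275 of 112040 in the other. Ratios were therefore scaled by TMM, which sets aside the most extreme genes, and are given as the log2 of DA-DDH over control after adding 0.5 reads to each. On this scale the median log2 ratio of the 4375 genes that reached 30 reads in either library was 0.03. Scaling by total reads would move it to 0.45, and every other log2 ratio up with it.

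Taken as a group, muscle genes were higher in the library of swaddled rats. The 38 members held 1124 reads in the control library, 0.141% of it (95% Clopper-Pearson interval 0.133 to 0.150), and 3273 reads in the DA-DDH library, 0.393% of it (0.379 to 0.406). Their summed log2 ratio was 1.05 (95% exact conditional interval 0.95 to 1.15), or 2.07-fold. Of the 38 members, 34 had more reads in the DA-DDH library, 2 had the same number, 1 had fewer and Myoz1, of the Z disc, had 0 reads in both. A bulk library cannot tell more muscle cells from more muscle RNA per cell.

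This floor of 30 reads in either library was reached by 22 members. Of these, 21 had a log2 ratio above 0 and 15 were more than 2-fold higher, against 52.4% and 4.71% of all genes at that floor. A single member was more than 2-fold lower, against 3.06% of all genes. The median log2 ratio of the 22 members was 1.17. Of the 22 members, 11 reached the floor through the DA-DDH library alone and so had to have more reads there. Among the 11 members with at least 30 reads in both libraries, 7 were more than 2-fold higher, against 1.15% of all genes with 30 reads in both. The other 16 members lay under the floor, and 13 of the 15 of them with any reads had a log2 ratio above 0.

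**Figure D1:**
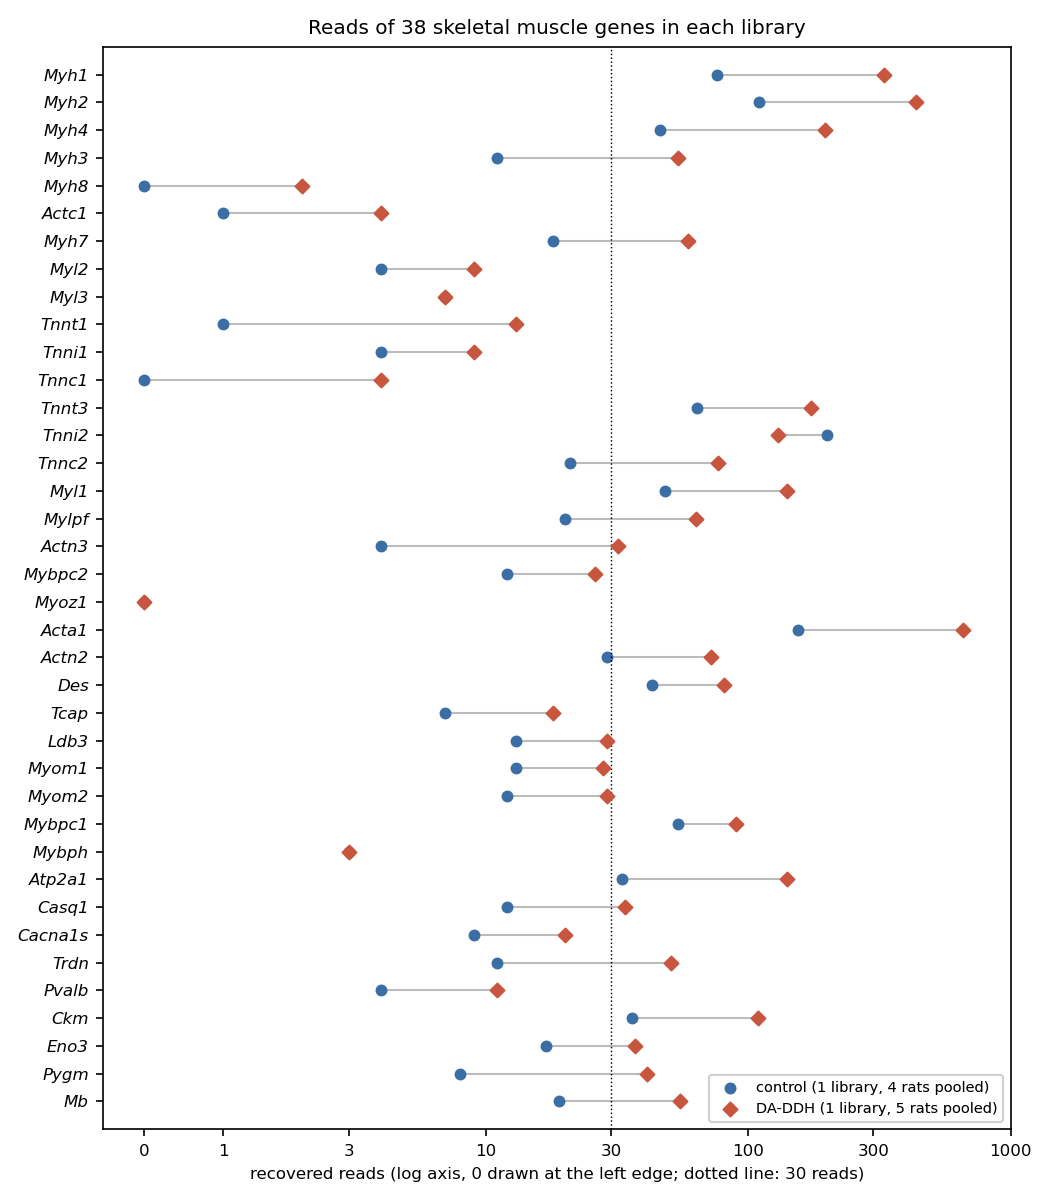
Recovered reads (log axis) of the 38 members with a row in the control library (circles) and the DA-DDH library (diamonds), 1 library each, with no error bars because there are no replicates. The diamond lies to the right of the circle for 34 members, covers it for Myl3, Mybph and Myoz1, and lies to the left for Tnni2 alone.

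The fast myosin heavy chains had nearly the same ratio. Myh2, the myosin of fast oxidative fibers, had 110 control and 436 DA-DDH reads, a log2 ratio of 1.49 (interval 1.19 to 1.81). Myh1, the myosin of intermediate fast fibers, had 76 and 330 reads, at 1.62 (1.26 to 2.01). Myh4, the myosin of the fastest fibers, had 46 and 196 reads, at 1.59 (1.13 to 2.10). All of them were higher in the DA-DDH library, with intervals that overlap widely. These genes lie in a row on the plus strand of chromosome 10 of rn6, Myh2 from 53711895 to 53738164, Myh1 from 53740841 to 53764610 and Myh4 from 53778666 to 53801606, between the developmental genes Myh3 and Myh8. They are close paralogs that may share or lose reads in counting. With Myh1, Myh2, Myh3, Myh4 and Myh8 counted as 1 gene, 12 of 19 members were more than 2-fold higher. Of all genes at the floor, 4.71% were.

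Embryonic and perinatal myosins mark fibers that are forming or regenerating, and cardiac actin is the actin of the heart and of young skeletal fibers. Myh3, the embryonic myosin, had 11 control and 54 DA-DDH reads, a log2 ratio of 1.75 (0.85 to 2.89). Myh8, the perinatal myosin, had 0 and 2 reads, and cardiac actin Actc1 had 1 and 4, all too few for a ratio of their own. A count of 0 allows up to 3 reads here, or 3.77 CPM in the control library. Slow fibers were represented by Myh7, the myosin that skeletal slow fibers share with the heart, with 18 and 59 reads, at 1.19 (0.44 to 2.07).

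The makeup of the myosin heavy chains differed little between the libraries, although their sum went from 261 to 1077 reads, a log2 ratio of 1.55 (1.36 to 1.75). Per kb of exon, slow and developmental myosins (Myh7, Myh3 and Myh8) made up 11.0% of the 6 heavy chains in the control library and 10.6% in the other. Counted in reads, this share was 0.43 percentage points lower after swaddling, with a 95% interval of the difference (Newcombe) from -5.14 to 3.39. Myh2 held the largest share in both, 42.1% of the reads (36.1 to 48.4) in the control library and 40.5% (37.5 to 43.5) in the other. Myh1 followed with 29.1% and 30.6%, and Myh4 with 17.6% and 18.2%. The order of the 6 chains was the same in both libraries, Myh2, Myh1, Myh4, Myh7, Myh3 and Myh8, although the intervals of Myh7 and Myh3 overlap. Each of the 6 differences in share had an interval that held 0. The intervals still allow differences of several percentage points, and these shares do not depend on how the libraries are scaled.

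**Figure D2:**
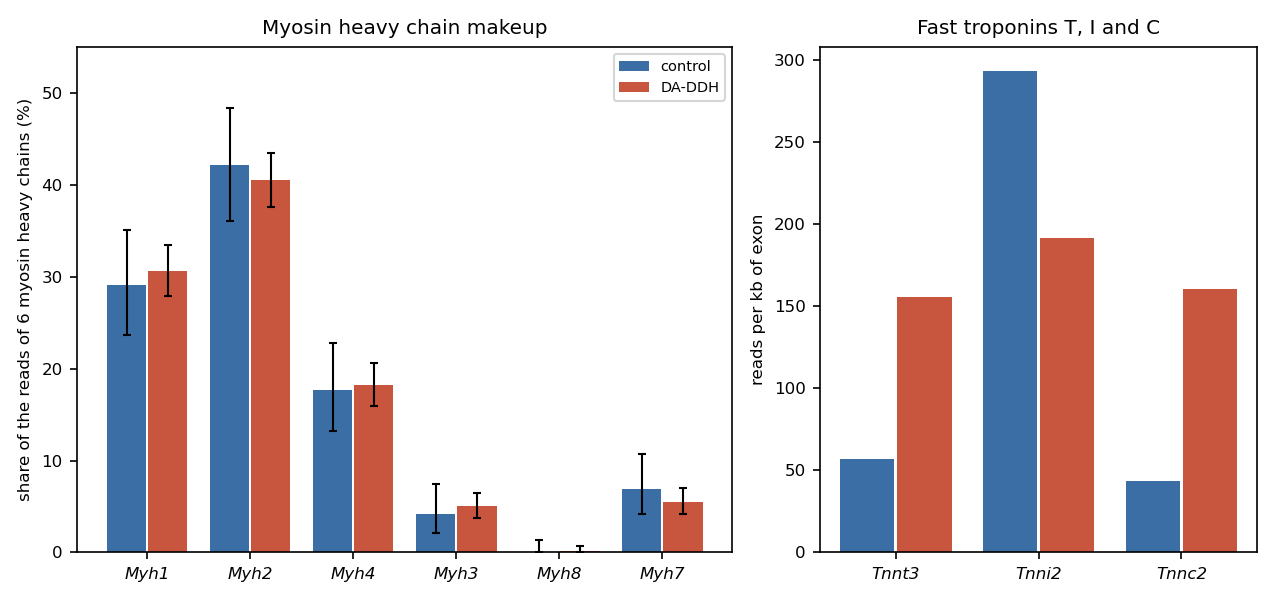
Left, the share of each gene in the reads of 6 myosin heavy chains (percent, bars from 0, whiskers 95% Clopper-Pearson intervals for counting error). Right, reads per kb of exon of the fast troponins T, I and C (no error bars, 1 library per condition). The myosin shares of the control and DA-DDH libraries lie close together, for example 42.1% and 40.5% for Myh2, whereas Tnni2 is the tallest troponin in both libraries and alone is lower in the DA-DDH library.

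Skeletal actin, Acta1, forms the thin filament and was the member with the most reads in the DA-DDH library. Its gene is on the minus strand of chromosome 19, bases 56674072 to 56677084 in rn6. Acta1 had 155 control and 659 DA-DDH reads, a log2 ratio of 1.59 (1.34 to 1.86). Its share of the members' reads was 13.8% (11.8 to 15.9) in the control library and 20.1% (18.8 to 21.5) in the other. The promoters of Acta1, Myh4 and Myh1, which had nearly the same ratio, and of Tnni2, which differed in the other direction, are shown as examples. Each is the 250 bases before the RefSeq start site on GRCr8, 5′ to 3′ on the strand of the gene. They lie at chr19:68784195-68784444 (minus strand), chr10:52421898-52422147 (plus), chr10:52384662-52384911 (plus) and chr1:207024240-207024489 (plus). Capitals mark matches to TATAAA on either strand, to the E box CANNTG that binds myogenic factors such as MyoD, to the MEF2 element and to the CArG box that binds serum response factor.
Acta1: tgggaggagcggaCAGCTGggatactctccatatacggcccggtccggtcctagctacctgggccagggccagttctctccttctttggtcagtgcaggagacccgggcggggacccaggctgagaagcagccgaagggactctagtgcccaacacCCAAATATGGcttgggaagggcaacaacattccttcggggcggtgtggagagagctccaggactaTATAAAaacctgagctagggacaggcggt
Myh4: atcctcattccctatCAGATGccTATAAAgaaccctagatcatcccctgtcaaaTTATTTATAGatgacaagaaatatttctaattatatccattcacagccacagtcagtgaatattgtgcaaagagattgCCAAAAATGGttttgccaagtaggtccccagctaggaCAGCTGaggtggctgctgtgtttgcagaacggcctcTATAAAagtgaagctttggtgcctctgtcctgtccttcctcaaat
Myh1: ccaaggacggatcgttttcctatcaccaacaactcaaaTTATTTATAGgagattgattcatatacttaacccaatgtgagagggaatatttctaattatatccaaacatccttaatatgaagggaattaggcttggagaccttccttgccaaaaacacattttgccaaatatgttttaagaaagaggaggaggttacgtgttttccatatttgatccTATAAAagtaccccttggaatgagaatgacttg
Tnni2: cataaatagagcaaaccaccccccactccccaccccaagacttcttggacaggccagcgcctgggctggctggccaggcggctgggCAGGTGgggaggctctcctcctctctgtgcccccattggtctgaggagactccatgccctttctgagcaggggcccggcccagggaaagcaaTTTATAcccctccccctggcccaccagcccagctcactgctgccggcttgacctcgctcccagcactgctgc

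In the Acta1 promoter, TATAAA lay 29 bases before the start, a CArG box 94 bases and an E box 237 bases before it. The Myh4 window held matches to all 4 motifs, with the MEF2 element overlapping a reverse TATAAA, as did the MEF2 element of Myh1. In the Tnni2 window, an E box and a reverse TATAAA matched. Promoters of 34 of the 41 members were in the RefSeq table. A CArG box was found in 4 of them (Acta1, Ldb3, Myh4 and Myl3), against 501 of all 33469 promoters. A MEF2 element was found in 4 (Myh1, Myh4, Myoz1 and Ttn), against 2.96%. TATAAA matched in 11 of the 34 against 12.9% of all, and an E box in 27 against 65.5%. Such matches describe letters, not bound sites, and Myoz1, with a MEF2 element, had 0 reads in both libraries. Myh2 and Atp2a1, at log2 ratios of 1.49 and 1.59, matched neither a CArG box nor a MEF2 element. Whether motif matches go with the ratios was not tested.

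Troponin responds to calcium and consists of subunits T, I and C. Tnnt3, fast troponin T, had 64 control and 174 DA-DDH reads, a log2 ratio of 0.94 (0.53 to 1.39). Tnnc2, fast troponin C, had 21 and 77 reads, at 1.36 (0.67 to 2.15). Tnni2, fast troponin I, went the other way, with 199 and 130 reads, a log2 ratio of -1.10 (-1.44 to -0.78), or 2.15-fold lower. It was the lone member with fewer reads in the DA-DDH library. With total-read scaling Tnni2 was still lower but within 2-fold, at -0.68. Tnni2 is on the plus strand of chromosome 1 in rn6, bases 215609110 to 215611652, and Tnnt3 lies on the same strand from 215666628 to 215683628. No annotated exon of another gene in the table overlaps Tnni2.

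The level of Tnni2 also stood out within the control library. Per kb of exon it had 293 reads there, the highest of the 38 members and above Acta1 with 108, Tnnt3 with 57.1 and Tnnc2 with 43.7. In the DA-DDH library Acta1 led with 458 reads per kb, and Tnni2 had 191, beside 160 for Tnnc2 and 155 for Tnnt3. The subunits of troponin assemble in equal numbers, and the levels of these fast isoforms per kb spanned 155 to 191 after swaddling and 43.7 to 293 in the control. Tnni2 held 70.1% (64.4 to 75.3) of the fast troponin reads in the control library and 34.1% (29.4 to 39.1) in the other, a difference of -35.9 percentage points (Newcombe interval -42.8 to -28.5). This comparison was chosen after the values were seen. As background, troponin I of fast muscle has also been isolated from human cartilage as an inhibitor of vessel growth. The 10 cartilage markers with a row were all lower, at a median log2 ratio of -1.47, with a range from -1.79 to -0.47 and sums of 261687 and 112040 reads, and their part in the Tnni2 result was not tested. Without Tnni2, the summed log2 ratio of the members was 1.27 (1.17 to 1.38) in place of 1.05.

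Of the other fast fiber genes, the light chains Myl1 and Mylpf, which brace the lever arm of fast myosin, had 48 and 140 reads at a log2 ratio of 1.04 (0.57 to 1.56) and 20 and 63 reads at 1.14 (0.42 to 1.97). Actn3, the alpha actinin that cross-links actin at the Z disc of fast fibers, had 4 control and 32 DA-DDH reads, at 2.36 (1.01 to 4.47). It had the largest log2 ratio among the 22 members, and the fewest control reads. Mybpc2, fast myosin binding protein C, stayed under the floor with 12 and 26 reads. Except for Tnni2 and for Myoz1 at 0, all the fast fiber genes had more reads in the DA-DDH library.

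Except for Mybpc1, the slow counterparts had few reads. Mybpc1, described with the sarcomere frame, had 54 control and 90 DA-DDH reads. These were 81.8% and 77.6% of the reads of its pair with Mybpc2. Tnnt1, slow troponin T, had 1 and 13 reads, Tnni1, slow troponin I, 4 and 9, and Tnnc1, the troponin C of slow fibers and heart, 0 and 4. The slow light chains were Myl2 with 4 and 9 reads and Myl3 with 7 in each library. Together with Myh7, and without Mybpc1, these 6 slow genes had 34 control and 101 DA-DDH reads, a summed log2 ratio of 1.06 (0.51 to 1.68). The 3 fast myosins were at 1.56 (1.35 to 1.77), and the 8 genes for thin filament, light chain and Z disc isoforms of fast fibers at 0.31 (0.12 to 0.50), or at 1.10 (0.85 to 1.37) without Tnni2, which was left out after its value was seen. Of 10 pairs of a slow, developmental or general isoform with its fast counterpart, 2 had an interval of the difference in share that left out 0. Actn2, the alpha actinin of all fibers, made up 87.6% of the alpha actinins Actn2 and Actn3 per kb in the control library and 68.7% in the other, and its share of their reads differed by -18.6 percentage points (-30.6 to -1.44). Tnni1 made up 1.63% and 5.41% of troponin I per kb, a difference of 4.50 points of reads (0.25 to 10.0), in which Tnni2 is the other gene. With so few reads, the remaining pairs allow wide differences, for example from -24.2 to 9.67 points for Myl2 against Mylpf.

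Genes of the sarcomere frame other than Acta1 had smaller log2 ratios than the sum of all members. Actn2 had 29 and 72 reads, a log2 ratio of 0.81 (0.18 to 1.49). Des, which encodes desmin, the intermediate filament that ties myofibrils together and that smooth muscle also makes, had 43 and 81 reads, at 0.41 (-0.13 to 0.99). Mybpc1, slow myosin binding protein C, had 54 and 90 reads, at 0.24 (-0.26 to 0.76), the smallest log2 ratio above 0 among the 22 members. The intervals of Des and Mybpc1 held 0 and lay below the summed ratio of all members. Those of the other frame genes except Acta1 held that ratio, and among them only the interval of Actn2 left out 0. The M line genes Myom1 and Myom2, with 13 and 28 and with 12 and 29 reads, and the Z disc genes Ldb3, with 13 and 29, and Tcap, with 7 and 18, fell short of 30 reads. Mybph, a myosin binding protein, had 3 reads in each library. Casq1 lay just inside the floor with 34 reads in the DA-DDH library, and Ldb3 and Myom2 just outside with 29.

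Calcium handling genes had a summed log2 ratio of 1.40 (1.02 to 1.81) over the 5 of 6 that had a row. Of the 3 at the floor, 2 were more than 2-fold higher, against 4.71% of all genes. Trdn and Casq1 reached the floor through the DA-DDH library alone, where they had to have more reads. Atp2a1, the pump that returns calcium to the stores of fast fibers, had 33 control and 141 DA-DDH reads, a log2 ratio of 1.59 (1.05 to 2.20). Its gene is on the minus strand of chromosome 1 in rn6 from 197855912 to 197875038, and 42 bases of its exons overlap Rabep2 on the other strand, which had 8 and 20 reads. Trdn, which encodes triadin of the release site, had 11 and 51 reads, at 1.67 (0.76 to 2.81). Casq1, the calcium store protein calsequestrin of skeletal muscle, had 12 and 34 reads, at 0.97 (0.03 to 2.10). Cacna1s, the voltage sensor, and Pvalb, the calcium buffer parvalbumin of fast fibers, had 9 and 20 and 4 and 11 reads.

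Genes of energy supply and oxygen storage followed, with a summed log2 ratio of 1.10 (0.73 to 1.49). Ckm, muscle creatine kinase, had 36 control and 109 DA-DDH reads, at 1.09 (0.55 to 1.69). Pygm, the muscle enzyme that breaks down glycogen, had 8 and 41 reads, at 1.80 (0.75 to 3.17). Mb, the oxygen store myoglobin of oxidative fibers, had 19 and 55 reads, at 1.02 (0.27 to 1.88). Eno3, muscle enolase, had 17 and 37 reads, at 0.61, with an interval from -0.23 to 1.55 that held 0.

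**Figure D3:**
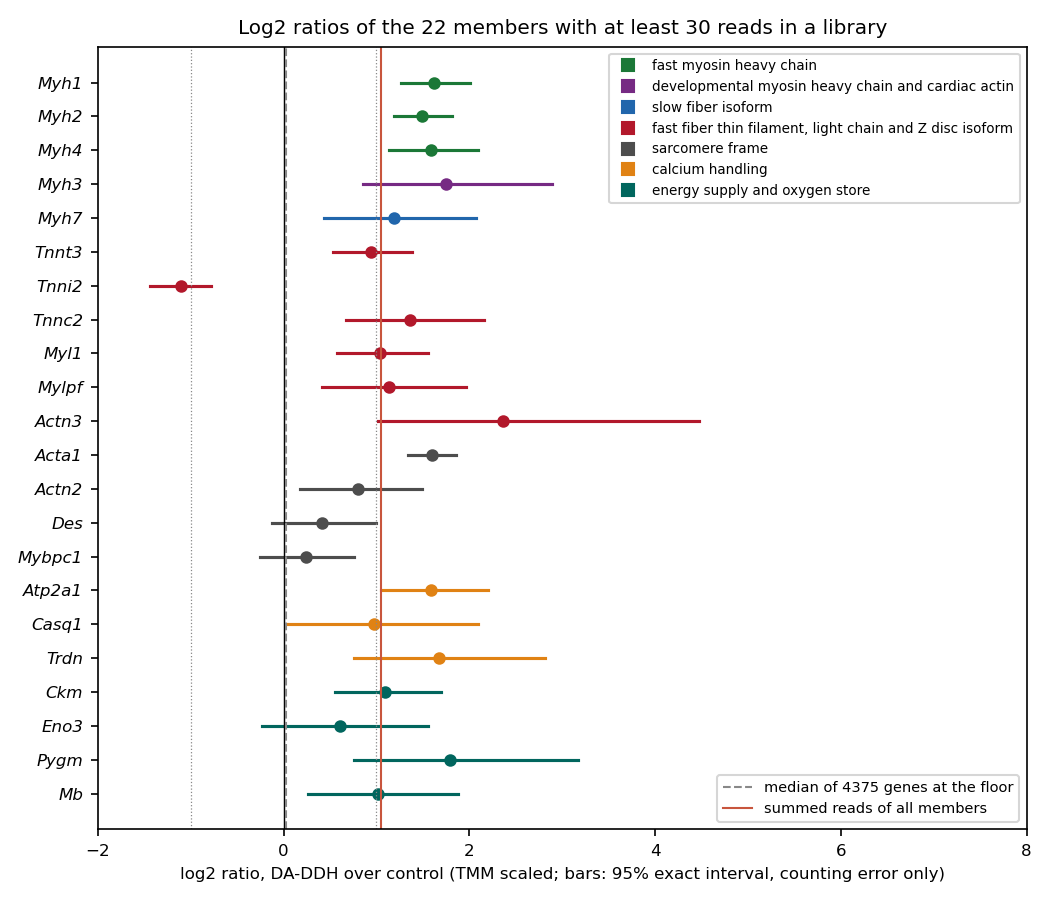
Log2 ratios of DA-DDH over control for the 22 members with at least 30 reads in a library, colored by role, with 95% exact conditional intervals for counting error, the summed ratio of all members at 1.05 and the median of 4375 genes at 0.03. Points lie between 0.24 and 2.36 except for Tnni2 at -1.10.

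To see how far the members shared a single ratio, each interval was set against the ratio of their summed reads. Of the 22 members, 15 had an interval that held it, 4 lay above (Acta1, Myh1, Myh2 and Myh4) and 3 below (Des, Mybpc1 and Tnni2). Against the sum without Tnni2, 18 of 21 intervals held the ratio, with Acta1 above and Des and Mybpc1 below. The members therefore did not all share a single ratio within counting error. An interval that held the summed ratio does not show a shared ratio. Many intervals span more than 2-fold, and the sum includes the reads of each member.

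Lists of muscle genes outside the 41 members had summed log2 ratios between -0.14 and 0.82. In these 7 further lists of 128 muscle genes, 111 had a row and 27 reached the floor, with a median log2 ratio of 0.40. Of these, 8 were more than 2-fold higher and 1 was more than 2-fold lower, against 4.71% and 3.06% of all genes. Of the 27, 9 reached the floor through the DA-DDH library alone, where they had to have more reads, and among the 17 with 30 reads in both libraries 2 were more than 2-fold higher, against 1.15% of all genes. Of 8 further sarcomere genes at the floor, 4 were more than 2-fold higher, against 4.71% of all genes. Of these 4, 3 (Synpo2, Xirp2 and Nrap) reached the floor through the DA-DDH library alone. Among the 4 genes of the list with 30 reads in both libraries, 1 was more than 2-fold higher. The summed log2 ratio of this list was 0.57 (0.43 to 0.71). Tpm2, a tropomyosin of skeletal and smooth muscle, was at 1.03 (84 and 242 reads). Synpo2, a Z disc and smooth muscle actin-binding protein, was at 1.61 (11 and 49 reads), Xirp2, which binds actin at cell junctions and Z discs, at 1.24 (25 and 84) and Nrap, which helps to assemble myofibrils, at 1.13 (13 and 41). In contrast, Myh14, a nonmuscle myosin, was at -1.51 (53 and 26 reads). Calcium and excitation genes had a summed log2 ratio of 0.46 (0.25 to 0.66), with the calcium channel subunit Cacna2d1 at 1.15. The dystrophin complex, which many cell types express in part, was at 0.20 (0.08 to 0.33), with the membrane repair gene Dysf at 0.83 (0.46 to 1.22). Other muscle energy genes were at 0.27 (0.03 to 0.51), but 3 of the 5 at the floor were below 0, at a median of -0.05. The 2 above 0 were Lpl, a lipase also of fat, at 1.52 (17 and 70 reads), and Phka1 at 1.05 (11 and 33). Both reached the floor through the DA-DDH library alone.

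The transcription factors that commit cells to muscle had at most 1 read. Pax3, Pax7, Myf5, Myog and Myf6 had 0 reads in both libraries and Myod1 had 0 and 1. A 0 does not show absence, since at this depth it allows up to 3 reads. Reads that fit several places of the genome may also have been left out of the counts. The list of myogenic regulators and satellite cell genes had 231 and 320 reads in all, a summed log2 ratio of -0.02 (-0.27 to 0.23). Its largest part came from Mef2a (119 and 128 reads, -0.39), which many tissues express, and its member Itga7, a laminin receptor of muscle and vessels, was at 1.53 (8 and 34 reads). Genes of the neuromuscular junction had 53 and 68 reads, at -0.14 (-0.67 to 0.41), of which Lrp4 alone held 44 and 51. Genes for sarcomere assembly and turnover had 55 and 137 reads, at 0.82 (0.36 to 1.30), with no gene at the floor. Heart markers were at the limit of detection with 8 and 4 reads over 10 genes.

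Markers of other tissues differed as well. Of 12 endothelial markers, 10 reached the floor, 4 of them through the DA-DDH library alone, and all of these were above 0, against 52.4% of all genes, at a median of 1.01 on the log2 scale with sums of 449 and 1329 reads, a summed log2 ratio of 1.07 (0.92 to 1.23). Robo4 of this list had 0 reads in both libraries. Of 12 macrophage markers, 5 reached the floor, 4 of them through the DA-DDH library alone, where they had to have more reads. All 5 were more than 2-fold higher, against 4.71% of all genes, with sums of 184 and 669 reads, at 1.37 (1.13 to 1.61). Of 10 markers at the floor for smooth muscle and pericytes, the contractile cells of vessel walls, none was more than 2-fold higher, against 4.71% of all genes. Their list had a summed log2 ratio of 0.30 (0.20 to 0.41), led by the smooth muscle myosin Myh11 at 0.91. Fibroblast markers were at 0.30 (0.20 to 0.39). Of the 8 at the floor, 2 were more than 2-fold higher, against 4.71% of all genes, and 1 of the 8 reached the floor through the DA-DDH library alone. Tendon markers were at -0.67 (-0.72 to -0.62), a sum carried by Fmod, a matrix gene also of cartilage, with 5547 and 4347 reads. Without Fmod, left out after its value was seen, the sum was at 0.05 (-0.07 to 0.17). Of the 5 tendon markers at the floor, 2 were above 0, Thbs4 at 0.44 (0.30 to 0.59) and Kera at 0.04. The 3 below 0 were Egr1 at -1.66 (212 and 94 reads), Fmod at -0.84 and Tnmd at -0.27. The part of these cell types in the muscle result was not tested.

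**Figure D4:**
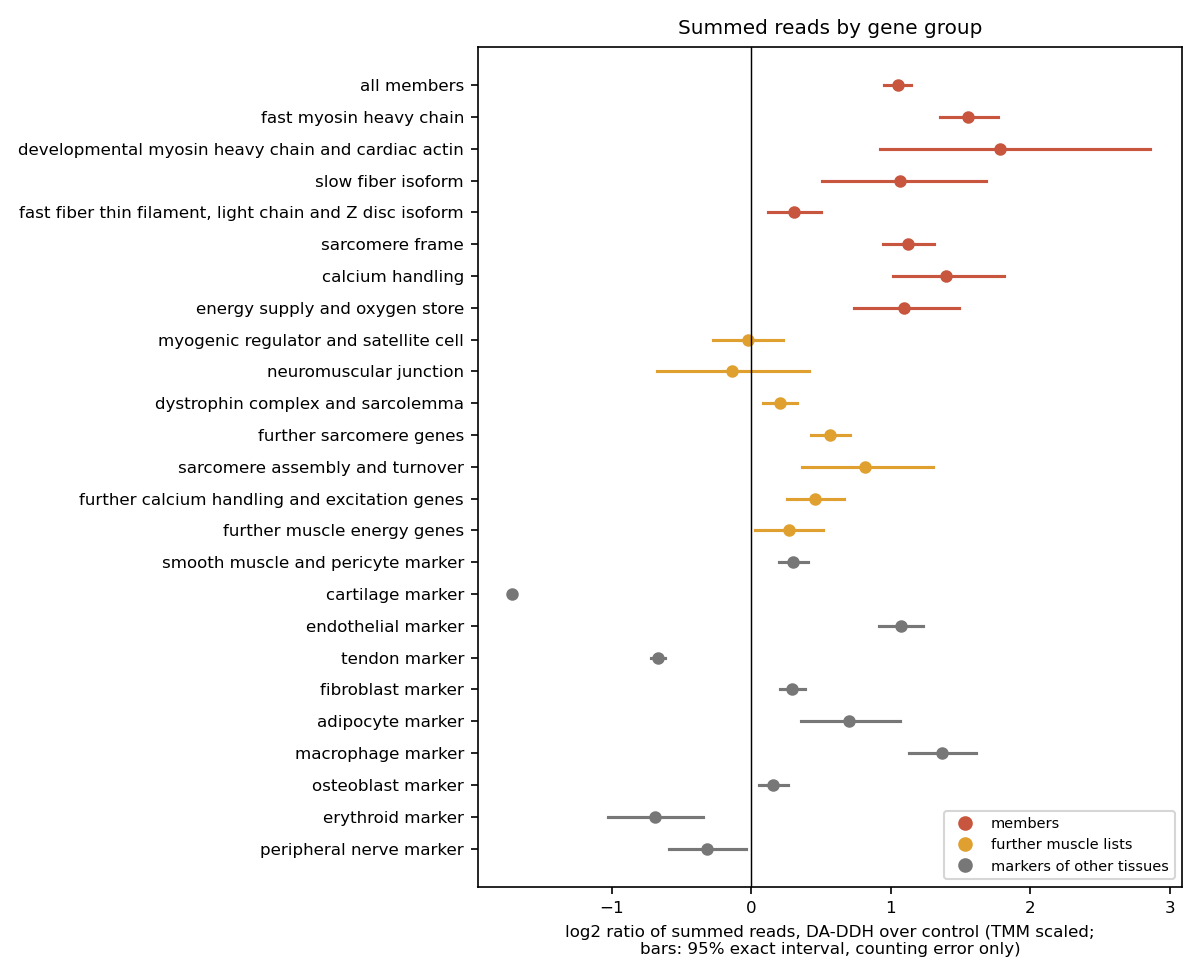
Log2 ratio of summed reads, DA-DDH over control, for all members, their 7 groups by role, 7 further muscle lists and 10 of the 11 lists of markers of other tissues (heart markers, with too few reads, are not drawn), with 95% exact conditional intervals for counting error. Fast myosins lie at 1.56 and calcium handling genes at 1.40, near macrophage markers at 1.37. All members lie at 1.05, near endothelial markers at 1.07. Smooth muscle markers lie at 0.30 and cartilage markers at -1.72, a sum in which Col2a1 holds most of the reads.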

How the data were processed

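RNA-seq libraries of acetabular cartilage were compared, 1 of control and 1 of DA-DDH rats. The deposited table gives, per gene, a normalized signal in each library, which the authors made by multiplying read counts by 1 factor per library, beside exon length and exon positions (rn6). TopHat and Cufflinks are named in the submitters' processing notes. The read counter and its strand setting are not given in the sources used here, so overlapping genes may share reads. The paper names an mRNA kit and the labels a total RNA kit. The deposited fold change (log2), p-value, q-value, rank and call columns hold the authors' own comparison and were not used.

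All values (100% per library, relative tolerance 1e-06) were whole multiples of the value of 1 read (1.20 and 0.855), so reads were recovered by division. With 1 library per group a count test across genes has no residual degrees of freedom, so none was run. TMM factors came from edgeR 4.0.16 (R 4.3.3) and were 0.863 and 1.16. Log2 ratios used a prior of 0.5 reads. Calls needed 30 reads in the library with more and a ratio over 2-fold. Intervals are 95% exact conditional binomial (ratios), Clopper-Pearson (shares) and Newcombe (differences of shares), from scipy 1.17.1. Only the ratios and their intervals were tested on simulated data. Those reads were drawn with Poisson counting error alone, so the test checks the calculation and not the spread between rats. Levels between genes are reads per kb of the deposited exon length. Depths of 796723 and 833869 reads leave most members with wide intervals.

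The 41 members and all lists were chosen with earlier results of these data known. All members are described, and of each other list up to 4 genes at the floor with the largest absolute log2 ratio, plus genes at 0 that define a cell type. Alternatives were scaling by total reads, by upper quartile, by the median of ratios of DESeq2 1.42.0 or by the authors' own factors, other priors, floors and folds, myosins summed as 1 gene, and leaving out members with overlapping exons.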

Additional observations from a re-analysis of the deposited data

How the results depend on the processing

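Scaling by upper quartile, by median of ratios or by the authors' own factors, and priors of 0.25 and 2 reads left all 37 members with reads on their side of 0. Scaling by total reads raised the summed log2 ratio from 1.05 to 1.48 and the count of members more than 2-fold higher from 15 to 19, and left 0 members more than 2-fold lower, since Tnni2 then lay within 2-fold. It changed the sign of 0 members. With a floor of 100 reads, 9 members remained to count, of which 7 were more than 2-fold higher and 8 above 0. With 30 reads required in both libraries, chosen after the data were seen, 7 of 11 were more than 2-fold higher and 10 above 0. Of all genes with 30 reads in both, 1.15% were more than 2-fold higher. With no floor, 34 of 37 were above 0. At a 3-fold threshold 8 members were higher and 0 lower. The share over all genes was not computed for total-read scaling, a floor of 100 reads, no floor or 3-fold. Counts at those settings show only how the members moved. Without Tnni2, also chosen after the data were seen, the summed log2 ratio was 1.27, and that of the fast thin filament, light chain and Z disc group went from 0.31 to 1.10. No paired analysis was possible because each group has 1 library, and for the same reason no library could be left out. Except for Mybpc1, depth limits the slow and developmental isoforms most, where single reads move the ratios.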

Other observations

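Lists of tissues not described above differed in direction. Of 8 adipocyte markers, 2 reached 30 reads and both were above 0, among them Plin1 of the lipid droplet at a log2 ratio of 1.14, and the summed log2 ratio was 0.70 (0.36 to 1.07). Osteoblast markers had 1238 and 1946 reads, at 0.16 (0.06 to 0.26), with 3 of 6 at the floor above 0 and 3 below. Erythroid markers had 158 and 138 reads, at -0.69 (-1.03 to -0.35), and peripheral nerve markers 204 and 231, at -0.31 (-0.59 to -0.03). Hba1 and Hba2, and Sox10 of Schwann cells, had 0 reads in both libraries.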
